A study of Mus musculus with 16 samples.

Results

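The genes described here are 10 axon injury response genes, *Atf3*, *Jun*, *Sprr1a*, *Gap43*, *Ecel1*, *Gal*, *Adcyap1*, *Vip*, *Sarm1* and *Nmnat2*, which were taken by symbol from a spinal cord RNA-Seq table of 18167 genes. All 10 were present in the table. Spinal cords came from transgenic mice that express human profilin1 (hPFN1), an actin-binding protein, from the mouse prion promoter, which is active broadly and not in neurons alone. Mutant mice carried hPFN1 with the G118V change (C57BL/6N-Tg(Prnp-PFN1*G118V)838Kiaei, suffix /J) and develop a disease that models amyotrophic lateral sclerosis (ALS), whereas the controls carried unchanged hPFN1 (C57BL/6N-Tg(Prnp-PFN1)850Kiaei/J), so both genotypes held a human transgene. The groups were wild-type young (WY, n = 3) and mutant young (MY, n = 3) mice, each 50 days old and pre-symptomatic, wild-type old mice (WO, n = 5, 190 to 294 days old) and mutant old mice at end-stage, when they could no longer right themselves (MO, n = 5, 175 to 245 days old), with 1 library per mouse. Each genotype is represented by 1 transgenic line, so the G118V change and other differences between the lines cannot be told apart.

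When an axon is cut or degenerates, the neuron is known to switch on a program of transcription factors, growth proteins and neuropeptides. The signal runs through dual leucine zipper kinase (DLK) and c-Jun N-terminal kinase (JNK) to the factors Jun and Atf3, and the program is best known from axotomized motor neurons and dorsal root ganglion neurons. Whether the cut axon itself is lost is governed by a separate pair of NAD enzymes, Sarm1, which consumes NAD and drives axon breakdown, and Nmnat2, a short-lived enzyme that makes NAD and holds Sarm1 in check.

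The mice are labelled male, but library MO5 went against that label. *Xist*, which is transcribed from the inactive X chromosome of females, had a log2(1 + FPKM) of 3.21 in MO5, whereas its highest level elsewhere was 0.37. *Ddx3y*, a gene of the Y chromosome, had 1.95 in MO5 and 4.06 or more in every remaining mouse. *Eif2s3y*, also on the Y chromosome, had 1.82 in MO5. As the values are adjusted for batch, whether RNA of Y genes was absent from MO5 cannot be told from them. Whether MO5 was a female mouse, a mixed library or a swapped one was not tested. The fold changes of the 10 genes in tests with MO mice are therefore also given without MO5, while most values of the other lists are given only with MO5 included. MO4, MO5, WO4 and WO5 belonged to library batch 2 and the other 12 mice to batch 1, and the authors had adjusted the values for batch. Within WO, the mice of batch 1 were 190 days old and those of batch 2 were 294 days old. Batch and age therefore cannot be told apart there. The MO mice of batch 2 were younger than these, at 224 days (MO4) and 175 days (MO5). Sequencing depth behind the value of each gene is unknown, as the table holds no read counts. In whole spinal cord, a change in the number of expressing cells and a change in RNA per cell cannot be told apart.

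At end-stage, *Atf3* and *Sprr1a* went from the lowest levels among the 10 genes to levels within the range of the others, *Ecel1* rose by 1.49-fold, and the other injury-induced genes rose by less. The levels are log2(1 + FPKM), where FPKM counts sequenced fragments relative to transcript length and library size. In WO mice the order of the mean levels was *Gap43* (6.58), *Nmnat2* (5.23), *Ecel1* (4.46), *Jun* (4.16), *Adcyap1* (3.92), *Gal* (3.72), *Sarm1* (2.86), *Vip* (2.12), *Atf3* (0.64) and *Sprr1a* (0.38). In MO mice it was *Gap43* (6.98), *Nmnat2* (5.13), *Ecel1* (5.03), *Jun* (4.56), *Sprr1a* (4.44), *Adcyap1* (4.41), *Gal* (4.08), *Atf3* (3.53), *Sarm1* (2.63) and *Vip* (2.47). In MO mice the ranges of neighbours in this order overlapped from *Nmnat2* down to *Atf3*, and so did those of *Sarm1* and *Vip*. In WO mice those of *Adcyap1* and *Gal* overlapped, as did those of *Atf3* and *Sprr1a*. The order of these neighbours is within the spread of the mice. *Gap43* stood above the other 9 genes in all 16 mice.

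**Figure D1:**
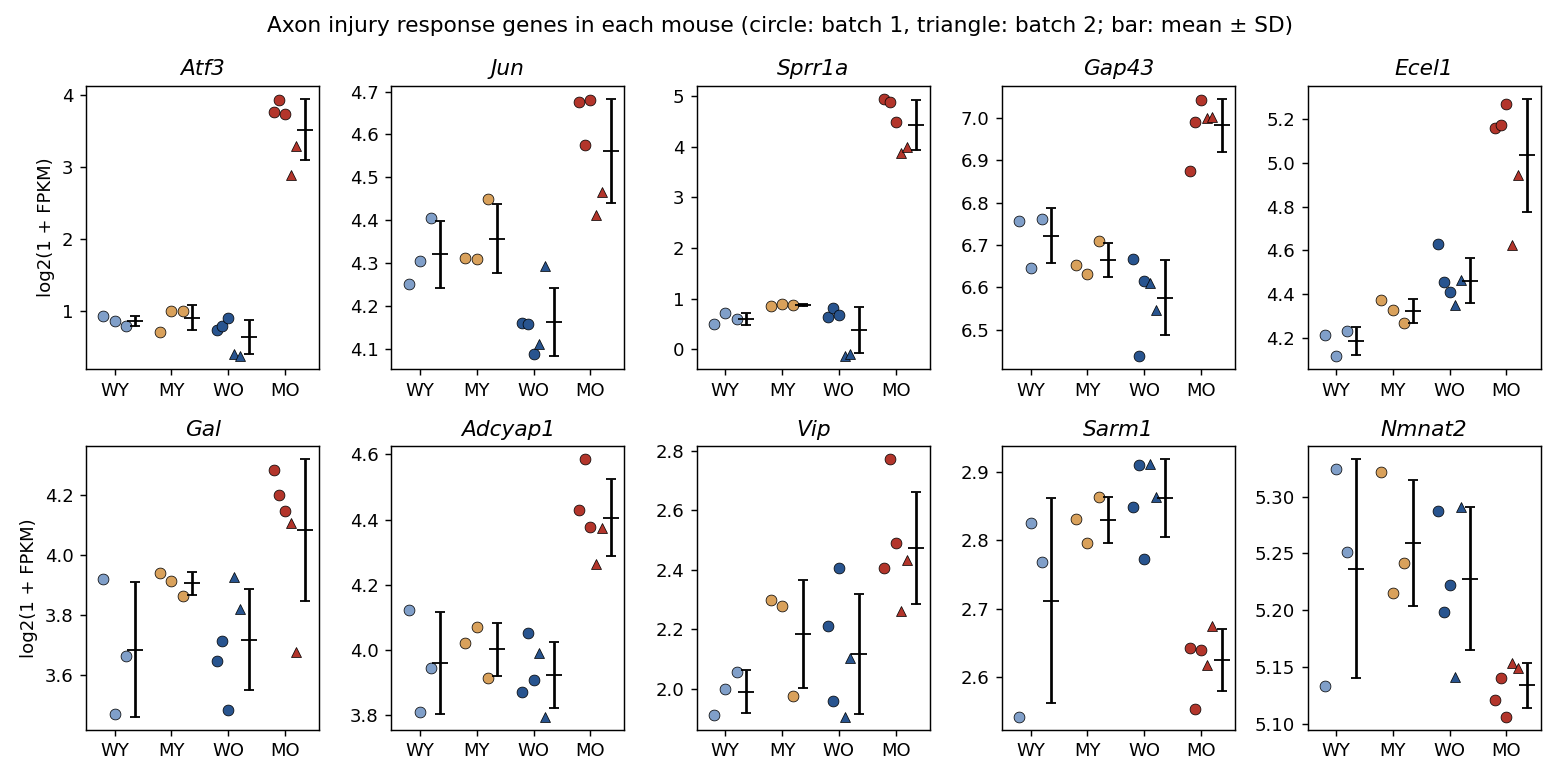
Level of each of the 10 genes in every mouse, in log2(1 + FPKM), for the WY, MY, WO and MO groups. Points are mice (circles batch 1, triangles batch 2), bars are the mean ± SD, and each panel has its own axis, which does not start at 0. *Atf3* and *Sprr1a* lie at or below 1.00 in the 11 mice of the other groups and between 2.89 and 4.95 in MO mice.

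The comparison WO vs. MO sets end-stage mutant mice against old mice that express unchanged hPFN1. A gene was called with a Benjamini-Hochberg FDR of at most 0.05 over the 18167 genes and a fold change of at least 1.5 on the scale of 1 + FPKM (0.585 in log2). Of the 10 genes, 2 were called higher, *Atf3* and *Sprr1a*, and 0 lower, where 4.08% of all genes were called higher. By the FDR alone 9 of the 10 passed, 8 higher and 1 lower, against 27.9% of all genes in either direction. Values of the groups did not overlap for 6 of the 10, against 19.9% of all genes. The median log2 fold change was 0.40 over the 10 genes and 0.00035 over all genes.

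*Atf3*, on chromosome 1 (chr1:191170296-191218039, minus strand, GENCODE M21 on GRCm38, the build named mm10 by the authors), encodes a stress-inducible transcription factor that is nearly silent in healthy neurons. Its levels were 3.76, 3.94, 3.74, 2.89 and 3.30 in MO1 to MO5 and 0.74, 0.79, 0.90, 0.40 and 0.37 in WO1 to WO5. The young mice had 0.70, 1.00 and 1.00 (MY) and 0.93, 0.86 and 0.79 (WY). MO mice were far above the mice of the other 3 groups, whose levels mixed, and the batch 2 mice were the lowest of both MO and WO. In FPKM, the median was 0.672 in WO and 12.3 in MO mice. The log2 fold change in WO vs. MO was 2.89 (SE 0.19, FDR = 1.5e-05, limma), which is 7.40-fold and the 18th largest increase of 18167 genes. It was 2.95 without MO5 (FDR = 8.83e-05), 3.01 in batch 1 (FDR = 5e-05, 3 against 3 mice) and 2.71 in batch 2 (FDR = 0.00141, 2 against 2 mice).

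*Jun*, on chromosome 4 (chr4:95049034-95052222, minus strand), encodes the JNK target that pairs with Fos or Atf proteins on DNA. Its levels were 4.68, 4.58, 4.68, 4.41 and 4.47 in MO mice and 4.16, 4.16, 4.09, 4.11 and 4.29 in WO mice. *Jun* was thus abundant in every mouse, and the MO mice were above the WO mice without overlap but by a small step. The log2 fold change was 0.40 (SE 0.062, FDR = 0.000877), under the 1.5-fold minimum. It was 0.51 in batch 1 (FDR = 0.00253) and 0.24 in batch 2, where it did not pass (FDR = 0.148), and 0.43 without MO5 (FDR = 0.00142).

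*Sprr1a*, on chromosome 3 (chr3:92483952-92485895, minus strand), encodes a small proline-rich protein known from the envelope of keratinocytes, which injured neurons also make and which promotes axon outgrowth. Its levels were 4.95, 4.88, 4.48, 3.88 and 4.00 in MO mice and 0.64, 0.82, 0.68, -0.14 and -0.088 in WO mice. MY mice had 0.86, 0.89 and 0.87 and WY mice 0.49, 0.72 and 0.59. MO mice were again apart from all others, and WO4 and WO5, both of batch 2, were below 0, which 1 + FPKM cannot give before the batch adjustment. The log2 fold change in WO vs. MO was 4.06 (SE 0.26, FDR = 1.46e-05), which is 16.6-fold on the scale of 1 + FPKM and the 5th largest increase of the table. It was 4.06 in batch 1 (FDR = 5.67e-05), 4.05 in batch 2 (FDR = 0.000227) and 4.17 without MO5 (FDR = 8.65e-05).

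*Gap43*, on chromosome 16 (chr16:42248442-42340651, minus strand), encodes a membrane protein of growth cones and is among the genes that the study used as neuron markers. Its levels were 6.87, 6.99, 7.04, 7.00 and 7.00 in MO mice and 6.67, 6.44, 6.62, 6.61 and 6.55 in WO mice. The groups did not overlap, and MO mice of both batches had similar levels. The log2 fold change was 0.41 (SE 0.050, FDR = 0.000199), with 0.40 in batch 1 (FDR = 0.0226), 0.42 in batch 2 (FDR = 0.0249) and 0.40 without MO5 (FDR = 0.000783).

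*Ecel1*, on chromosome 1 (chr1:87147655-87156521, minus strand), encodes a membrane metallopeptidase also named damage-induced neuronal endopeptidase. Its levels were 5.16, 5.17, 5.27, 4.62 and 4.95 in MO mice and 4.63, 4.45, 4.41, 4.35 and 4.47 in WO mice. MO4 was just below WO1, and the other MO mice were above every WO mouse. The log2 fold change of 0.57 (SE 0.11, FDR = 0.00342), or 1.49-fold, fell just short of the minimum. *Ecel1* was called without MO4 (0.68, FDR = 0.000179), without MO5 (0.60, FDR = 0.00668), without WO1 (0.62, FDR = 0.00446), with log2(FPKM + 0.1) (0.59, FDR = 0.00495) and in batch 1 (0.70, FDR = 0.00208), whereas in batch 2 it did not pass the FDR (0.38, FDR = 0.126).

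The neuropeptides *Gal* (galanin), *Adcyap1* (the precursor of PACAP) and *Vip* (vasoactive intestinal peptide) are known to rise in neurons after axotomy, and *Vip* is also among the neuron markers of the study. *Adcyap1* (chr17:93199017-93206537, plus strand) had levels of 4.43, 4.59, 4.38, 4.26 and 4.38 in MO mice and 3.87, 4.05, 3.91, 3.99 and 3.79 in WO mice. *Gal* (chr19:3409915-3414544, minus strand) had 4.29, 4.20, 4.15, 4.11 and 3.68 in MO mice and 3.65, 3.71, 3.49, 3.93 and 3.82 in WO mice. *Adcyap1* separated the groups without overlap, whereas for *Gal* the MO5 mouse was within the WO range and the other 4 MO mice were above it. *Vip* (chr10:5639218-5647617, plus strand) had 2.41, 2.77, 2.49, 2.26 and 2.43 in MO mice and 2.21, 1.96, 2.41, 1.91 and 2.10 in WO mice, which overlapped. The log2 fold change was 0.48 for *Adcyap1* (SE 0.065, FDR = 0.000377), 0.36 for *Gal* (SE 0.12, FDR = 0.0397) and 0.35 for *Vip* (SE 0.11, FDR = 0.0355), each under 1.5-fold.

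The *Gal* increase was larger in batch 1 than in batch 2, a difference that was not tested. That of *Vip* was 0.28 to 0.44 under all alternatives, with FDRs on both sides of 0.05. *Gal* was called in batch 1 (0.59, FDR = 0.00459) and showed next to no difference in batch 2 (0.019, FDR = 0.951). In batch 2, MO5 (3.68) was below WO4 (3.93) and WO5 (3.82), whereas MO4 (4.11) was above both. Without MO5 the log2 fold change of *Gal* was 0.47 (FDR = 0.00328). *Gal* lost the FDR when any of MO1 to MO4, WO1, WO2, WO3 or WO5 was left out, with log2 fold changes of 0.31 to 0.39. With all mice, *Gal* also did not pass with batch as a term of the fit (0.36, FDR = 0.0513) or with the replicate number as a block (0.36, FDR = 0.0826). *Vip* lost the FDR without MO5 (0.36, FDR = 0.0563) and in batch 1 (0.36, FDR = 0.142), and also without any of MO2, MO3, WO2, WO4 or WO5, with log2 fold changes of 0.28 to 0.35. The same held in batch 2 (0.34, FDR = 0.108), after quantile normalization (0.29, FDR = 0.0704) and with the replicate block (0.35, FDR = 0.0503). In the test against a fold change of 1.2, neither *Gal* nor *Vip* passed. *Adcyap1* was at 0.49 without MO5 (FDR = 0.00117), 0.52 in batch 1 (FDR = 0.00855) and 0.43 in batch 2, where it did not pass (FDR = 0.0578).

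The NAD enzymes *Sarm1* and *Nmnat2* both had negative log2 fold changes, but with all mice only that of *Sarm1* passed the FDR. *Sarm1* (chr11:78472330-78497754, minus strand) had levels of 2.64, 2.55, 2.64, 2.62 and 2.67 in MO mice and 2.85, 2.91, 2.77, 2.91 and 2.86 in WO mice. MO mice were below WO mice without overlap, although WY1, at 2.54, was lower than all of them, and the log2 fold change was -0.24 (SE 0.038, FDR = 0.00115). It was -0.25 without MO5 (FDR = 0.00209), -0.23 in batch 1 (FDR = 0.0485) and -0.24 in batch 2, where it did not pass (FDR = 0.0875). *Nmnat2* (chr1:152954993-153119261, plus strand) had 5.12, 5.14, 5.11, 5.15 and 5.15 in MO mice and 5.29, 5.20, 5.22, 5.14 and 5.29 in WO mice. These overlapped at WO4, and the log2 fold change of -0.094 (SE 0.036, FDR = 0.0805) did not pass, nor did it without MO5 (-0.098, FDR = 0.108), and it passed without WO4 (-0.12, FDR = 0.0405).

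MY vs. MO compares pre-symptomatic with end-stage mutant mice, which are different animals. Age and disease stage cannot be told apart in it, and it shares the MO mice with WO vs. MO. *Atf3* (2.62, SE 0.23, FDR = 0.000297), *Sprr1a* (3.56, SE 0.25, FDR = 0.000203) and *Ecel1* (0.71, SE 0.13, FDR = 0.00633) were called higher, 3 of the 10, against 4.11% of all genes. By the FDR alone 7 passed, 5 higher and 2 lower, against 25.6% of all genes, and 7 did not overlap, against 31.6%. *Gap43* (0.32, FDR = 0.00197) and *Adcyap1* (0.40, FDR = 0.00488) were the other genes that rose, and *Sarm1* (-0.20, FDR = 0.00748) and *Nmnat2* (-0.13, FDR = 0.0418) fell. *Jun* (0.21, FDR = 0.0774), *Gal* (0.18, FDR = 0.35) and *Vip* (0.29, FDR = 0.113) did not pass. Without MO5 the log2 fold changes of *Atf3*, *Sprr1a* and *Ecel1* were 2.68, 3.67 and 0.74, and these 3 were still called. Without MO5, *Gap43* (0.31, FDR = 0.00526), *Adcyap1* (0.41, FDR = 0.0102) and *Sarm1* (-0.22, FDR = 0.00972) still passed the FDR, and *Jun* (0.23, FDR = 0.0695), *Vip* (0.30, FDR = 0.149) and *Nmnat2* (-0.13, FDR = 0.0603) did not.

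The call of *Ecel1* held when any of these 8 mice was left out, with log2 fold changes of 0.65 to 0.82, and was lost with all 8 mice when the test was against a fold change of 1.2 (FDR = 0.0961). *Nmnat2* lost the FDR when any of the 8 was left out, with log2 fold changes of -0.15 to -0.095. *Jun* passed it without MO4 (0.24, FDR = 0.0342) and in batch 1 (0.29, FDR = 0.0155), and *Gal* without MO5 (0.28, FDR = 0.00899) and in batch 1 (0.30, FDR = 0.00794). Batch 2 holds no young mice, so no value exists within it.

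WY vs. MY compares the genotypes before symptoms. None of the 10 genes was called or passed the FDR in limma, where 0.00550% of all genes, 1 gene, was called, and 2 of the 10 had an unadjusted P below 0.05, against 7.16% of all genes. *Sprr1a* was 0.60 ± 0.11 (SD) in WY and 0.87 ± 0.014 in MY mice, with a log2 fold change of 0.27 and an FDR of 0.534. *Ecel1* was 4.19 ± 0.062 in WY and 4.32 ± 0.053 in MY mice, with 0.14 and an FDR of 0.676. Both had each MY mouse above each WY mouse, 2 of the 10 genes, against 13.7% of all genes. *Atf3* had 0.86 ± 0.067 in WY and 0.90 ± 0.17 in MY mice, with 0.046 and a 95% interval from -0.18 to 0.27.

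WY vs. WO compares the ages without the mutation. None of the 10 genes was called or passed the FDR in limma, where 0.253% of all genes were called, and 3 had an unadjusted P below 0.05, *Jun*, *Gap43* and *Ecel1*, against 13.5% of all genes. *Ecel1* went from 4.19 ± 0.062 (SD) in WY to 4.46 ± 0.10 in WO mice, a log2 fold change of 0.28 (FDR = 0.099), and was the only one of the 10 whose groups did not overlap, against 9.67% of all genes. *Jun* (-0.16, FDR = 0.272) and *Gap43* (-0.15, FDR = 0.331) had negative values. For *Atf3* (-0.22, 95% interval from -0.51 to 0.071) and *Sprr1a* (-0.22, from -0.76 to 0.32) the WO group spread widely between its batches, which also differed in age. With batch 1 only, *Atf3* was at -0.050 and *Sprr1a* at 0.11, on the other side of 0.

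**Figure D2:**
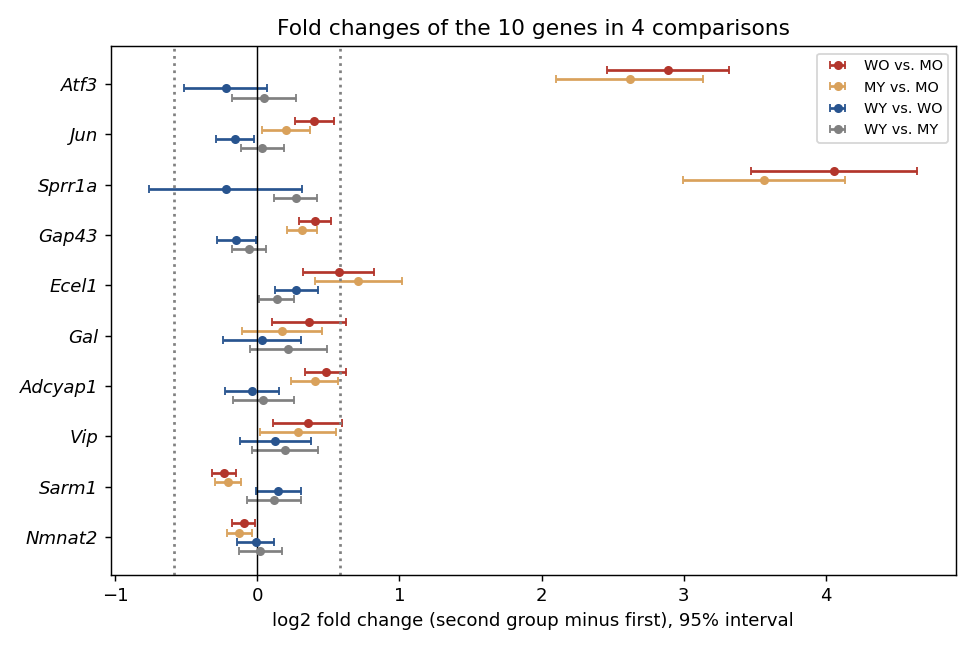
Log2 fold change of each of the 10 genes (second group minus first) with its 95% interval in the 4 comparisons. Dotted lines mark a 1.5-fold change, and only *Atf3* and *Sprr1a* lie wholly beyond them, at 2.62 to 4.06 in both comparisons with MO mice.

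Whether the change with age differed between the genotypes was tested as (MO - MY) - (WO - WY) over all 16 mice. It did for *Atf3* (2.84, SE 0.28) and *Sprr1a* (3.79, SE 0.37), both with an FDR of 4.43e-05, 2 of the 10 genes called against 5.61% of all genes. By the FDR alone 6 passed, against 17.7% of all genes, and these also included *Gap43* (0.46, FDR = 0.000709), *Adcyap1* (0.44, FDR = 0.015), *Jun* (0.36, FDR = 0.0177) and *Sarm1* (-0.35, FDR = 0.00693). *Ecel1* (0.44, FDR = 0.0726) did not pass, and it passed without MO4 (0.54, FDR = 0.00284) and in batch 1 (0.57, FDR = 0.00249). *Gal* (0.14, FDR = 0.655), *Vip* (0.16, FDR = 0.579) and *Nmnat2* (-0.12, FDR = 0.252) did not pass. *Jun* lost the FDR without MY1 (0.34, FDR = 0.0523) and without WY3 (0.32, FDR = 0.0506). Without MO5, *Atf3* had 2.90 and *Sprr1a* 3.90, with FDRs of 8.35e-05 and 5.98e-05. *Gap43* (0.46, FDR = 0.00153), *Adcyap1* (0.45, FDR = 0.0202), *Jun* (0.39, FDR = 0.0152) and *Sarm1* (-0.37, FDR = 0.00853) also passed without MO5, and *Ecel1* (0.46, FDR = 0.0746), *Gal* (0.25, FDR = 0.275), *Vip* (0.17, FDR = 0.578) and *Nmnat2* (-0.12, FDR = 0.266) did not.

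Among 16 other transcription factors of the injury program, 10 passed the FDR in WO vs. MO, all higher (27.9% of all genes passed it in either direction), and 4 were called higher (4.08% of all genes), with a median log2 fold change of 0.40 over the list against 0.00035 over all genes. The called factors were *Cebpd* (1.64, FDR = 0.000234), *Cebpb* (1.10, FDR = 0.00143), *Myc* (0.79, FDR = 7.02e-05) and *Junb* (0.75, FDR = 0.000983), the latter another AP-1 subunit. In MY vs. MO 11 of the 16 passed the FDR, against 25.6% of all genes, and 4 were called, against 4.11%: *Cebpd* (1.79), *Cebpb* (1.28), *Junb* (0.94) and *Myc* (0.70). None of the 16 was called between the young groups or between the ages of wild-type mice, and 2 passed the FDR with higher levels in WO than in WY mice, against 1.12% of all genes in either direction.

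Most of the kinases and scaffolds upstream of Jun had lower levels, but *Map3k12*, which encodes DLK itself, had a log2 fold change of 0.025 in WO vs. MO (FDR = 0.675). Of 10 genes of the DLK and JNK pathway, 0 were called in WO vs. MO, 8 passed the FDR with lower levels and 0 with higher levels, against 27.9% of all genes in either direction, and the median log2 fold change was -0.23. *Mapk10*, the JNK found mainly in neurons, had the lowest FDR of the list, at -0.28 (SE 0.039, FDR = 0.000506). In MY vs. MO again 8 of the 10 passed with lower levels, against 25.6% of all genes, and 0 were called. In the interaction 6 of the 10 passed the FDR with negative values, against 17.7% of all genes in either direction, and 1 was called, against 5.61%.

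Of 20 further growth and regeneration genes, 5 were called higher and 0 lower in WO vs. MO, where 4.08% of all genes were called higher, with a median of 0.17. *Hspb1*, a small heat shock protein that rises in axotomized neurons and in reactive astrocytes, had the largest change (2.47, SE 0.26, FDR = 7.65e-05), followed by *Plaur*, the urokinase receptor (1.40, FDR = 8.4e-05). *Marcks* (0.70), *Chl1* (0.66) and *Crh* (0.59) completed the 5. Mean *Crh* was higher in mutant mice at both ages: 0.93 in WY, 1.85 in MY, 1.17 in WO and 1.76 in MO mice. None of the 20 genes passed the FDR in WY vs. MY. In MY vs. MO 4 were called higher, against 4.11% of all genes: *Hspb1* (2.34), *Plaur* (1.43), *Gadd45a* (0.67) and *Itga7* (0.61). *Crh* had -0.098 there and did not pass. By the FDR alone 8 of the 20 were higher and 1 lower in WO vs. MO, against 27.9% of all genes. In MY vs. MO 7 were higher and 3 lower, against 25.6%, with a median of -0.0020.

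Among 6 receptors for the 3 neuropeptides, *Vipr2*, a receptor of both Vip and PACAP, was called lower in WO vs. MO (-0.63, SE 0.080, FDR = 0.00024), and *Galr3* passed the FDR at 0.54 and was called in MY vs. MO (0.62, FDR = 0.00927) from group means of 0.097 to 0.71. Of 11 genes of NAD metabolism and axon degeneration beside *Sarm1* and *Nmnat2*, 5 passed the FDR with higher levels in WO vs. MO, against 27.9% of all genes in either direction. Called higher was 1, against 4.08% of all genes: *Naprt*, which makes NAD from nicotinic acid (0.67, FDR = 0.00193, and 0.82 in MY vs. MO). Among injury cytokines and receptors, *Osmr* (1.63), *Clcf1* (1.23) and *Cntf* (1.12) were called higher in WO vs. MO, and all of these also in MY vs. MO (1.70, 1.07 and 1.03).

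**Figure D3:**
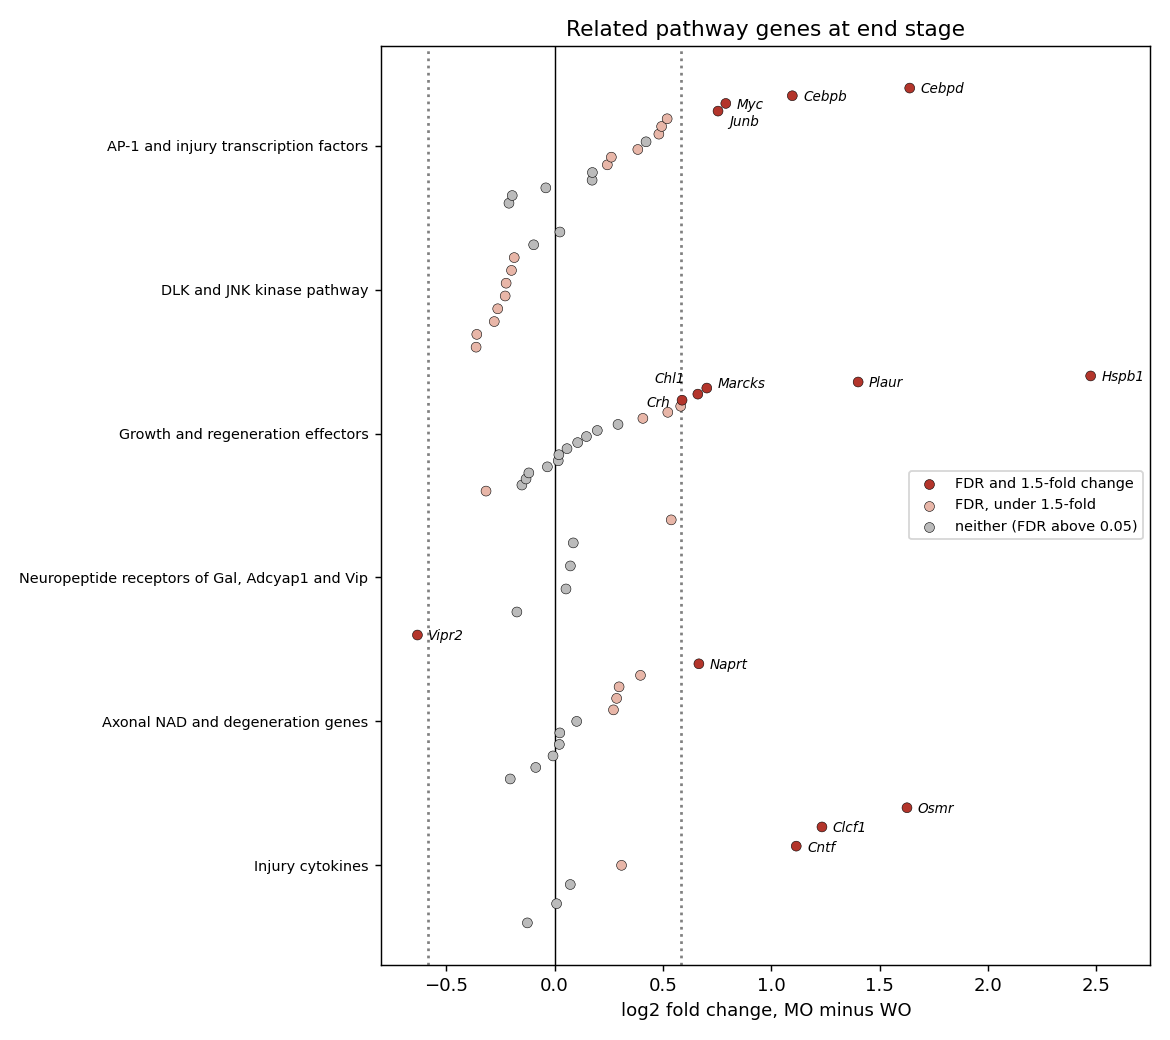
Log2 fold change in WO vs. MO of genes of the 6 related lists, with dotted lines at 1.5-fold. Dark points passed the FDR and the fold change, light points the FDR alone and grey points neither. The DLK and JNK genes lie between -0.36 and 0.025, whereas 4 of the 16 transcription factors lie beyond 1.5-fold.

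Markers of cell types moved together with these genes, and their part in the result was not tested. Of 8 motor neuron markers, 6 passed the FDR with lower levels in WO vs. MO, against 27.9% of all genes in either direction. *Chodl* (-1.74) and *Chat* (-0.67), 2 of the 8, were called, where 94 of 18167 genes were called lower. The summed FPKM of the 8 markers was 108.3, 113.9, 92.47, 125.6 and 104.5 in MO1 to MO5 and 172, 143, 145, 145 and 154 in WO1 to WO5, and *Prph* was the most abundant. The microglia markers were higher in 5 of 6 genes by the FDR (27.9% of all genes) and 4 were called (4.08% of all genes were called higher). Their summed FPKM was 141, 175, 184, 144 and 147 in MO mice against 76.6, 80.2, 80.6, 69.1 and 64.1 in WO mice, led by *Csf1r*. Of 6 astrocyte markers, 5 were higher by the FDR and 3 were called, against the same shares of all genes, with sums of 2587 to 3490 in MO and 1149 to 1383 in WO mice, led by *Gfap*. MO mice were thus apart from WO mice in all 3 lists, lower in motor neuron RNA and higher in microglia and astrocyte RNA, while *Atf3* and *Sprr1a* were higher. Mean log2 levels of these 3 lists gave an exact permutation P of 0.00794 each, the smallest that 5 against 5 mice allow, and 0.0781 after adjustment over 48 tests. Without MO5 the differences were -0.56 for motor neuron, 0.97 for microglia and 0.69 for astrocyte markers, against -0.57, 0.96 and 0.68 with it. With the median over the markers in place of the mean, they were -1.21, 0.65 and 0.55, and the pan-neuron difference was -0.15 against -0.30.

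Pan-neuron markers passed the FDR with lower levels for 6 of 8 genes, 1 of them called, led by *Snap25*, with sums of 2014 to 2189 in MO and 2585 to 2836 in WO mice. Over all genes 27.9% passed the FDR in either direction, the share to set beside the other lists of this paragraph too. Of the markers of dorsal root ganglion neurons, 6 of the 7 present stayed below a log2 level of 1 in every mouse and *P2rx3* was the most abundant. The summed FPKM of these 7 markers was 1.38, 1.67, 1.57, 1.53 and 1.78 in MO mice and 1.67, 1.73, 1.80, 1.63 and 1.41 in WO mice, with no separation of the groups. None was called, and among those that passed the FDR were *Avil* (0.36) and *P2rx3* (-0.15). Keratinocyte markers, given since keratinocytes make *Sprr1a*, had sums of 2.11 to 3.74 in MO and 3.21 to 4.18 in WO mice, with *Krt10* the most abundant and 0 of 5 genes past the FDR. Schwann cell markers, led by *Drp2*, had sums of 11.6 to 15.4 in MO and 9.78 to 10.8 in WO mice, with 1 of 6 past the FDR, and 4 of the 6 below 1 in every mouse. Skeletal muscle markers, led by *Mylpf*, had sums of 1.56 to 3.17 in MO and 2.86 to 3.55 in WO mice, with 1 of 6 past the FDR. No marker was at or below 0 in every mouse.

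Of 8 immediate early genes, which react to handling of fresh tissue, *Egr2* was called (0.82), where 4.08% of all genes were called higher. By the FDR 2 of the 8 were higher and 1 lower, near the 27.9% of all genes that passed in either direction. Their sums were 40.3 to 65.3 in MO and 45.1 to 56 in WO mice, led by *Arc*. The oligodendrocyte sums, led by *Mbp*, ran from 6872 to 21750 in MO and from 4782 to 23420 in WO mice. Batch 2 had 21750 and 21210 in MO4 and MO5 and 4782 and 23420 in WO4 and WO5, and batch 1 had 6872 to 7433 in MO and 9085 to 9828 in WO mice. *Mbp* alone was at 39.9 FPKM in WO4 and 19070 in WO5. By the FDR 1 of the 6 genes was higher and 2 were lower, of which 1 was called, against 27.9% of all genes passing in either direction. The *Hox* genes of spinal cord position were present in all mice, led by *Hoxb8*, with sums of 96.9 to 122 in MO and 117.5 to 126.6 in WO mice, while the 3 forebrain markers present summed to at most 2.40, led by *Neurod6*.

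The genes most similar to *Atf3* over the 16 mice, by Pearson's r among 13529 genes with a mean level of at least 1, were *Tlr2* (0.996), *Cd84* (0.995), *Sprr1a* (0.994), *Golm1* (0.994) and *Fcgr2b* (0.994). For *Sprr1a* they were *Tlr2* (0.995), *Serpina3n* (0.995), *Atf3* (0.994), *Csf1r* (0.993) and *Fyb* (0.991). *Atf3* and *Sprr1a* meet this minimum only with the MO mice included, as their means over the other 11 mice were 0.77 and 0.58. These values describe mostly the step between the MO mice and the others, and between *Atf3* and *Sprr1a* r was 0.994 also without MO5. Over the 11 mice of the other groups, r was 0.858 between *Atf3* and *Sprr1a*, 0.803 between *Atf3* and *Tlr2* and 0.883 between *Sprr1a* and *Tlr2*, where WO4 and WO5 of batch 2 were the lowest mice for both *Atf3* and *Sprr1a*.

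As *Atf3* and *Sprr1a* moved together, the RefSeq promoters of the 10 genes (GRCm38.p6, 250 bases before to 50 bases after the start) were searched on both strands for AP-1 (TGANTCA), CRE (TGACGTCA) and STAT (TTCNNNGAA) motifs, where N is any base. The table held 10 promoters for 9 of the 10 genes, *Adcyap1* with 2, and *Gap43* had none. *Sprr1a* was the only member with a match, an AP-1 motif spelled TGAGTCA at positions -146 and -116 from the start. Of 32851 mouse promoters, 7.81% held at least 1 AP-1 motif and 0.46% at least 2, while 1.79% held a CRE and 8.3% a STAT motif. A match describes letters, not a bound site, and no match says only that these letters are not in this window. The 250 bases before the start of *Sprr1a* (chr3:92485882-92486131, minus strand, 5′ to 3′) are printed to show both AP-1 motifs, which are in capitals.
Sprr1a: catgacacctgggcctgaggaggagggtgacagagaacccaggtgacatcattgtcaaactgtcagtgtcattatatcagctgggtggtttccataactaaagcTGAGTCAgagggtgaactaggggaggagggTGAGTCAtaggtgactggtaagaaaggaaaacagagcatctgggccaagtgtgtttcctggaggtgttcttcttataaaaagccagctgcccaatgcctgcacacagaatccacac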

How the data were processed

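Spinal cord mRNA of 16 mice was sequenced on a NextSeq with a stranded kit. The log2 values were used as deposited: the authors used Trimmomatic on the reads, TopHat for alignment (build mm10) and Cufflinks for FPKM, removed genes at 0 in at least 8 mice, took log2(1 + FPKM) and removed library batch with ComBat (versions and ComBat covariates are not given in the sources used here). No column was left unused, and 915 values were below 0. Depth per gene is unknown, so precision rests on the spread between mice. Groups came from the sample labels. The age and library batch of each mouse are those that the study reported.

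Each pair of groups was fitted by itself over 18167 genes in R 4.3.3 with limma 3.58.1 (lmFit, eBayes, two-sided), as second group minus first, with calls at a Benjamini-Hochberg FDR of 0.05 or less and 1.5-fold or more, and the interaction was fitted on 4 group means. The fits were also run on simulated data, whose outcome is not given here, so no result rests on it. Marker levels were compared by exact permutation tests over mice (two-sided). Python 3.11.15 with NumPy 2.4.6, pandas 2.3.3 and matplotlib 3.10.9 was used. Promoters were from RefSeq on GRCm38.p6 and positions from GENCODE M21.

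The genes and lists were chosen with earlier results of these data known. Named were the 10 genes, any gene of a pathway list called in 1 of the 4 comparisons (otherwise the one with the lowest FDR in WO vs. MO), the 5 genes most correlated with each called member, and per marker list its sum and most abundant gene. Not every gene that fits this rule is named or drawn. *Map3k12* and the marker genes given with a fold change were chosen after their values were seen. Genes absent from the table included *Mrgprd* and *Krtdap*. Alternatives were batch 1 only, batch as a term, genes with a mean of at least 1, quantile normalization, all 4 groups fitted together, a prior with an intensity trend, treat of limma at 1.2-fold, log2(FPKM + 0.1) with negative FPKM set to 0, the replicate block, each mouse left out, and the median over markers; batch 2 only was added after the data were seen.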

Additional observations from a re-analysis of the deposited data

Results flagged for a closer look

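For 6 of the 10 genes the change with age differed between mutant and wild-type mice in the limma interaction test over 16 mice, (MO - MY) - (WO - WY), where 17.7% of all genes passed the FDR. The difference in log2 was 2.84 for *Atf3* and 3.79 for *Sprr1a* (FDR = 4.43e-05 for both), 0.46 for *Gap43* (FDR = 0.000709), 0.44 for *Adcyap1* (FDR = 0.015), 0.36 for *Jun* (FDR = 0.0177) and -0.35 for *Sarm1* (FDR = 0.00693). *Sarm1* is the only one of the 6 with a negative value: its mean went from 2.71 in WY to 2.86 in WO mice and from 2.83 in MY to 2.63 in MO mice. The difference of 0.15 between WY and WO mice did not pass (FDR = 0.402) and was 0.064 without WY1, and without WY1 the interaction was -0.27 (FDR = 0.0108). No mouse stood apart from its group by Dixon's 95% limit in the WO or MO values of the 10 genes, a rule by which chance picks about 1 in 20 groups. For *Gal*, MO5 (3.68) fell only just short of this limit.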

How the results depend on the processing

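*Atf3* and *Sprr1a* were called in WO vs. MO, in MY vs. MO and in the interaction under each alternative run (the minimum mean of 1 is no support, as both genes meet it only with the MO mice), with log2 fold changes of 2.52 to 4.07 for *Atf3* and 3.44 to 5.97 for *Sprr1a*, the highest with log2(FPKM + 0.1). Over the 5 comparisons, 875 of the members' values under the alternatives kept their direction and were called or not called as before, although 57 of these lost the FDR and 12 gained it. A further 6 became called and 1 was no longer called. The remaining 18 changed sign, all of them in WY vs. WO or WY vs. MY, where no member passed the FDR.

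Members called in WO vs. MO numbered 4 with batch 1 only, where *Gal* and *Ecel1* were added, and 2 with batch 2 only. They numbered 3, with *Ecel1* added, with log2(FPKM + 0.1) and without MO4, MO5 or WO1. All genes called numbered 836 in WO vs. MO, 890 in MY vs. MO and 1020 in the interaction, and 1529, 1483 and 1548 with log2(FPKM + 0.1), a smaller pseudocount that widens fold changes of low genes. Treat gave 593 in the interaction and 3 instead of 46 in WY vs. WO, where batch 1 only gave 73, batch as a term 80 and leaving out mice 7 to 64 (7 without WY replicate 3, 23 without WY replicate 1, 26 without WO replicate 2, 27 without WO replicate 3 and 30 without WY replicate 2). In WY vs. MY the 1 gene called became 2 with a mean of at least 1, 2 with an intensity trend, 4 with all groups in 1 fit and 1 to 5 when mice were left out. The cause of these differences was not tested.

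With the replicate number as a block (replicate block), 840 genes were called in WO vs. MO, 1108 in MY vs. MO, 63 in WY vs. WO and 1 in WY vs. MY, with 2, 3, 0 and 0 members among them, as without the block. Deviations of mice with the same number had correlations of -0.21 to 0.38, and in no comparison were all of them above 0.1, so the mice were treated as unpaired.

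In WY vs. WO, *Sprr1a* and *Gal* had log2 fold changes of -0.22 and 0.033, and of 0.11 and -0.070 with batch 1 only, batch as a term or the replicate block. *Nmnat2* (-0.0087) had 0.012 after quantile normalization. With mice left out, *Gal* ranged from -0.074 to 0.15, *Nmnat2* from -0.060 to 0.035 and *Adcyap1* from -0.11 to 0.045. In WY vs. MY, *Nmnat2* ranged from -0.029 to 0.067, *Atf3* from -0.0044 to 0.15, *Jun* from -0.0098 to 0.079 and *Adcyap1* from -0.032 to 0.12.

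Marker levels that changed sign were those near 0. With the median over the markers, the difference in WO vs. MO was 0.0058 for dorsal root ganglion neurons, -0.073 for oligodendrocytes and 0.033 for skeletal muscle. It was -0.13 for Schwann cells in MY vs. MO, 0.0083 for microglia and 0.070 for keratinocytes in WY vs. WO, and -0.025 for Schwann cells, 0.061 for keratinocytes and 0.0042 for spinal cord position in WY vs. MY. With mice left out, differences in WO vs. MO ranged from -0.013 to 0.0042 for dorsal root ganglion neurons and -0.14 to 0.21 for oligodendrocytes. In MY vs. MO they ranged from -0.015 to 0.028 for Schwann cells, -0.037 to 0.013 for keratinocytes, -0.012 to 0.042 for skeletal muscle and -0.024 to 0.015 for forebrain. In WY vs. WO they ranged from -0.072 to 0.015 for microglia, -0.042 to 0.0032 for keratinocytes, -0.092 to 0.018 for skeletal muscle and -0.029 to 0.017 for spinal cord position. In WY vs. MY they ranged from -0.046 to 0.096 for motor neurons, -0.0092 to 0.0028 for dorsal root ganglion neurons, -0.0057 to 0.037 for Schwann cells, -0.026 to 0.039 for microglia and -0.046 to 0.016 for forebrain.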
